A study of Arabidopsis thaliana with 4 samples.

Results

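The regions described are 310 of 11478 summits of RNA polymerase V (Pol V) chromatin immunoprecipitation peaks in Arabidopsis thaliana, each lying between a pair of protein-coding genes that are transcribed away from each other. A summit, the position of the highest signal in a peak, was taken when it lay outside every annotated gene and pseudogene, within 1000 bp upstream of the start of at least 1 plus-strand and at least 1 minus-strand protein-coding gene, and not within 1000 bp downstream of the end of any protein-coding gene. Anywhere in the genome, 338 summits lay within 1000 bp upstream of starts on both strands. Of these, 7 were inside a protein-coding gene, 9 inside another gene or pseudogene, and 12 of the remaining 322 were within 1000 bp downstream of a gene end, which left 310.

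The study examined where DRD1, DMS3 and RDM1, the 3 proteins of the DDR complex, sit on chromatin relative to Pol V. Its 4 samples, 1 library each, were anti-FLAG immunoprecipitations from inflorescences of soil-grown, untreated plants: the untransformed Col0 control and lines named DRD1-Flag, DMS3-Flag and RDM1-Flag for the tagged protein they express. The signals of these libraries were not analysed here. The Pol V summits came from a separate, published experiment in which an antibody against Pol V was compared with a control without antibody. They form 1 peak call with no replicate and unknown depth, so every interval below covers counting error or the spread over summits only, and no test between conditions was possible. Each summit carries a whole-number score from the authors' peak calling whose scale the sources used here do not give, and it ranks summits within the list only.

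In RNA-directed DNA methylation (RdDM), plants use small RNAs made from transcripts of RNA polymerase IV to find loci that Pol V transcribes. ARGONAUTE proteins loaded with these small RNAs bind the Pol V transcripts, and the methyltransferase DRM2 then methylates cytosines in every sequence context, CG, CHG and CHH, where H is any base but G. The DDR complex is needed for Pol V transcription, and many RdDM targets are short transposons and repeats close to genes. Between divergent genes the same DNA is the promoter region of both neighbours.

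The sequences at the highest-scoring summits are shown first because they differ widely in base content. Each line gives the summit base and 50 bases on each side of it, on the plus strand of TAIR10.1, and in this first set capitals mark the CG sites.
AT5G02360/AT5G02370, chr5:503161-503261: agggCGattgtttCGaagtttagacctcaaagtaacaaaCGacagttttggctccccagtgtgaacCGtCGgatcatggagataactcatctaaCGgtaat
AT1G27870/AT1G27880, chr1:9708241-9708341: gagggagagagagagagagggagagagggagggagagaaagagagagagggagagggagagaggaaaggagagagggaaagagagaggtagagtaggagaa
AT3G23880/TOPII, chr3:8623655-8623755: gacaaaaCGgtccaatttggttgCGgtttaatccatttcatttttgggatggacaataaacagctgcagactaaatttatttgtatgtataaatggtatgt
AT5G40050/AT5G40060, chr5:16033565-16033665: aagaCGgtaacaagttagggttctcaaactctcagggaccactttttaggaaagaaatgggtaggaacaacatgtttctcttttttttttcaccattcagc
ATVPS33/MRH2, chr3:20330290-20330390: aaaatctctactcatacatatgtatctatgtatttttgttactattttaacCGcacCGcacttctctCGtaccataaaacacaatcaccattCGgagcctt

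The window between AT5G02360 and AT5G02370 held 6 CG sites, whereas the one between AT1G27870 and AT1G27880 held 0 and was 98.0% purine (A or G) on the strand shown. That purine tract was the only one of its kind: 1 of the 310 summits had at least 75% purine or at least 75% pyrimidine within 50 bp, and the median share of whichever was commoner was 54.5%.

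In the next set capitals mark the arms of a perfect inverted repeat, a stretch followed by its own reverse complement. The first is the summit with the highest score of all 310, and the second holds the longest inverted repeat found at any of them; the second was chosen after its values were seen.
AT2G32520/CSLB03, chr2:13807985-13808085: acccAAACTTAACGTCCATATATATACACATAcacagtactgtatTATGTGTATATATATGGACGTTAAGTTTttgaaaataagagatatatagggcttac
AT5G43200/AT5G43210, chr5:17347065-17347285: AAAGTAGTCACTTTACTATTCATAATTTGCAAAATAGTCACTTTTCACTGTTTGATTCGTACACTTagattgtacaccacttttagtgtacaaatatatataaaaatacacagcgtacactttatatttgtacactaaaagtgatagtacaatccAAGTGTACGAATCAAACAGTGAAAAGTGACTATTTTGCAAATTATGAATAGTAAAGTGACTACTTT

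Upstream of CSLB03, a cellulose synthase-like gene, the arms were 28 bp long and 13 bp apart, and the summit at 13808035 lay in the right arm. Between AT5G43200 and AT5G43210 the arms were 66 bp long and 89 bp apart, and the summit at 17347095, with a score of 341, lay in the left arm.

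The last set shows the whole gap between the gene starts where it was shortest, and the summit beside NRPD2A, the gene for a large subunit that RNA polymerases IV and V share. Both were chosen for display after their values were seen, and neither contained a CG site.
Whole gap AT4G03440/AT4G03443, chr4:1527629-1527715: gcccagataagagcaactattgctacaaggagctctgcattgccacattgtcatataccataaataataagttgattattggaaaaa
NRPD2A/AAE16, chr3:8574639-8574739: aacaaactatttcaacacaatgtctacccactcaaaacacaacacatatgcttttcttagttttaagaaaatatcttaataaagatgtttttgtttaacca

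The 10 highest-scoring summits ranked between 9 and 201 in the list of 11478. The highest, with a score of 1439 (rank 9), lay 325 bp from the start of AT2G32520, annotated as an alpha/beta-hydrolase, and 984 bp from that of CSLB03, in a gap of 1308 bp. The next, with a score of 1355 (rank 20), was 882 bp from AT5G02360, a DC1 domain protein, and 197 bp from AT5G02370, annotated as a microtubule motor protein. Both summits were well away from the middle of their gap.

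At the purine tract the score was 1277 (rank 35), 993 bp from AT1G27870 (ribonuclease H-like) and 570 bp from AT1G27880 (a DEAD/DEAH box RNA helicase). TOPII, the gene for topoisomerase II, which untangles DNA during replication and division, faced the F-box gene AT3G23880 across a summit with a score of 1155, which was 931 bp and 491 bp from their starts. A summit with a score of 1121 lay 64 bp from the F-box gene AT5G40050 and 826 bp from AT5G40060, a disease resistance gene of the NBS-LRR class. This was the summit closest to a gene start among the 10.

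Other high-scoring summits were nearly central. The summit between ATVPS33, whose product acts in vacuolar membrane traffic, and MRH2, a kinesin gene named for its root hair mutant, scored 1107 and lay 310 and 340 bp from the starts. That between NEK1, a NIMA-related kinase gene, and AT1G54520 scored 1075 and was 385 and 384 bp away. The summit between the carboxylesterase gene CXE18 and AT5G23535 scored 976, at 407 and 362 bp. The remaining pair of the 10 were off centre, with 1103 between the receptor-like kinase gene AT2G01210 and AT2G01220 (127 and 916 bp) and 1056 between AT1G69080 and AT1G69085 (387 and 969 bp).

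**Figure D1:**
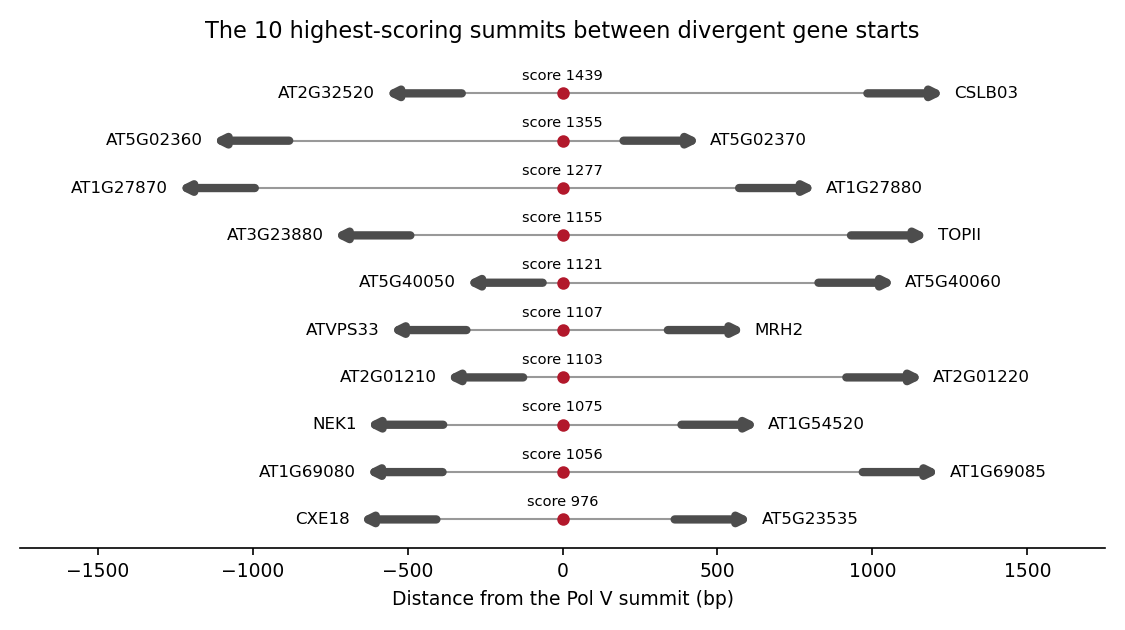
Map of the 10 highest-scoring summits, aligned at the summit (point), with distance in bp on the horizontal axis; arrows start at the annotated gene starts, point in the direction of transcription and are not drawn to gene length. The scores run from 1439 to 976, and the summits lie from 64 to 570 bp from the nearer start.

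Scores between divergent starts were high for the list. They ran from 33 to 1439 with a median of 308 (95% interval from order statistics 277 to 344) and quartiles of 132 and 535, against a median of 169 (164 to 174) over all summits. A score at or above the list median was found at 216 of 310 (69.7%, Wilson interval 64.3 to 74.5%). A pair of like classes outside genes served for comparison. Single-gene promoters, within 1000 bp upstream of starts on 1 strand and away from gene ends, held 2175 summits with a median of 219 (207 to 232). Short tandem gaps, within 1000 bp both upstream of a start and downstream of a gene end, held 755 with a median of 249 (215 to 275). The intervals of divergent starts and the other 2 classes did not overlap. Among the 100 highest scores of the list were 7 of the 310 (2.26%, 1.10 to 4.59%), 25 of the single-gene promoters (1.15%, 0.780 to 1.69%) and 7 of the tandem gaps (0.927%, 0.450 to 1.90%), shares whose intervals overlapped.

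Isolation moved with the score. Another summit lay within 3000 bp of 99 of the 310 (31.9%, 27.0 to 37.3%), compared with 60.7% in single-gene promoters, 45.2% in tandem gaps and 63.4% of all summits. The rule places a gene within 1000 bp on both sides of each of the 310, and 8057 of 11478 summits lay outside genes. How far the rule itself sets the share with a neighbour within 3000 bp was not tested. Among summits without such a neighbour the medians were 317 (284 to 375, n = 211) between divergent starts, 271 (251 to 298, n = 855) in single-gene promoters and 313 (269 to 342, n = 414) in tandem gaps, and these intervals overlapped. Among summits with a neighbour they were 278 (164 to 347, n = 99), 191 (180 to 207, n = 1320) and 188 (160 to 214, n = 341), again with overlapping intervals. The median between divergent starts was the highest in both groups, but its interval was wider in each than over all 310. Whether isolation accounts for the higher pooled median was not tested.

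Density did not follow the same order. The bases that meet the rule summed to 1.62 Mb, 1.36% of the determined bases of the 5 chromosomes, and held 191.5 summits per Mb (exact Poisson interval 170.8 to 214.1), 1.99 times the 96.5 per Mb of the whole genome. Single-gene promoters were denser, with 226.8 per Mb (217.4 to 236.6), and tandem gaps had 163.8 (152.3 to 175.9), an interval that overlapped that of divergent starts. With a window of 500 bp, divergent starts and tandem gaps had 122.5 and 123.1 per Mb. Next to the starts, density was below the average of its own class in all 3 classes. In the first 100 bp from the nearer start the density was 45.6 per Mb (27.0 to 72.0) between divergent starts, 110.8 (92.9 to 131.2) in single-gene promoters and 48.5 in tandem gaps. Between divergent starts it rose to 414.5 per Mb (290.3 to 573.9) from 601 to 700 bp, where single-gene promoters had 255.7 (223.1 to 291.7). Beyond that it was lower, at 243.0 (129.4 to 415.5) from 701 to 800 bp, where single-gene promoters had 245.8 (213.1 to 282.1), and only 6 and 2 summits lay in the next steps of 100 bp. Bases this far from both starts exist only in the longer gaps, so distance and gap length were not separated in this comparison.

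**Figure D2:**
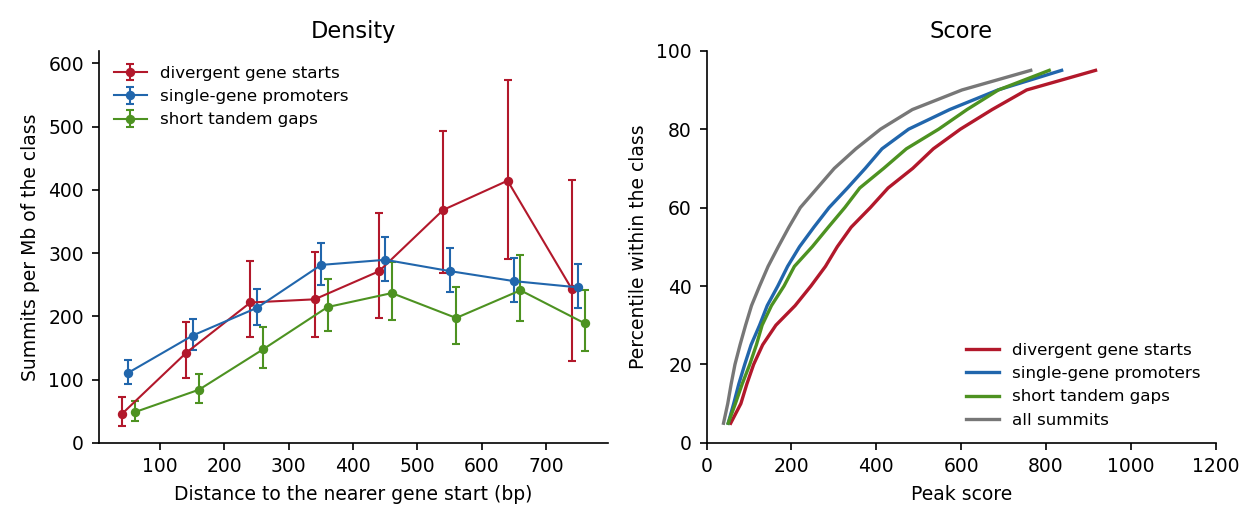
Left, summits per Mb of each class by distance to the nearer gene start in steps of 100 bp up to 800 bp, with 95% Poisson intervals; right, percentiles of the peak score within each class and over all summits. Density between divergent starts rises from 45.6 to 414.5 per Mb and falls to 243.0 in the last step, and its score curve lies to the right of the others, with a median of 308.

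The annotation has 3603 divergent gaps, stretches between the nearest minus-strand start on the left and plus-strand start on the right with bases that meet the rule, and 306 of them (8.49%, Wilson interval 7.63 to 9.45%) held a summit. Of these, 302 held 1 summit and 4 held a pair. Occupied gaps ran from 87 to 1906 bp with a median of 1088 bp, against 706 bp over all divergent gaps. Only 13 of 1410 gaps of up to 500 bp held a summit (0.922%). The share was 11.5% (109 of 948) at 501 to 1000 bp and 19.3% (142 of 737) at 1001 to 1500 bp. It was 8.27% (42 of 508) above that, where only the central bases are within 1000 bp of both starts. Per Mb of those bases the longest gaps were as dense as any, with 328.3 (236.6 to 443.8) against 273.6 (230.7 to 322.1) at 1001 to 1500 bp.

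Occupied gaps were concentrated where genes are sparse. The gaps were split into 4 groups of about equal size at 258, 278 and 296 protein-coding genes per Mb in the surrounding 500 kb. The group with the lowest gene density had 149 of 962 gaps occupied (15.5%, 13.3 to 17.9%), and the next groups had 7.06%, 5.71% and 5.03% (44 of 874, 3.77 to 6.69%). The difference was also present among gaps of like length from 501 to 1500 bp, but not clearly in longer ones. In gaps of 501 to 1000 bp the share fell from 21.3% (16.6 to 26.9%) in the lowest to 6.03% (3.63 to 9.87%) in the highest group, and in gaps of 1001 to 1500 bp from 30.7% (25.01 to 37.0%) to 12.9% (8.35 to 19.5%). In gaps above 1500 bp the shares were 11.05% (7.27 to 16.5%) in the lowest and 9.28% (4.96 to 16.7%) in the highest group, with overlapping intervals. Chromosome 4 had the highest share of occupied gaps, 12.1% (9.63 to 15.2%), and chromosome 1 the lowest, 7.21% (5.74 to 9.03%). The median score was 308 in the lowest and 393.5 (308 to 431) in the highest group of gene density, with overlapping intervals.

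**Figure D3:**
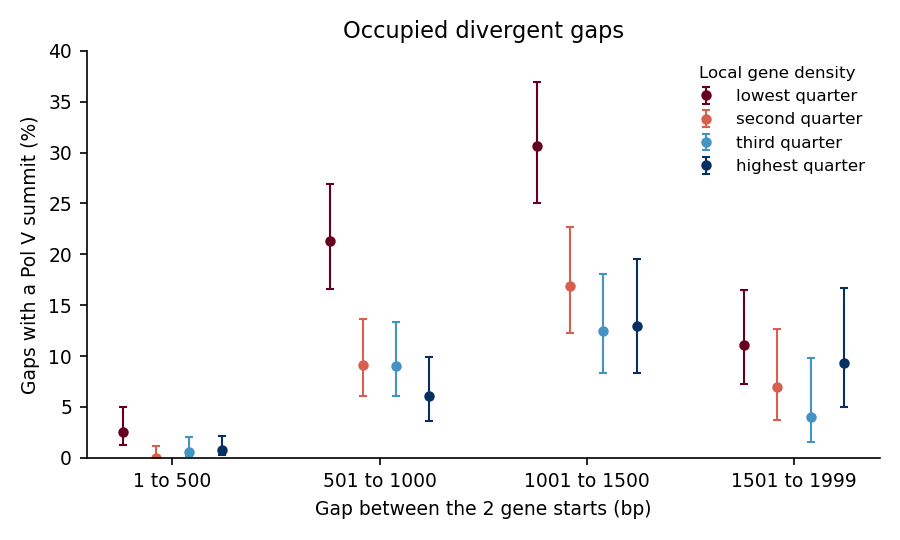
Share of divergent gaps that held a Pol V summit (percent, with 95% Wilson intervals) by length of the gap and by group of local gene density in 500 kb. In gaps of 1001 to 1500 bp the share is 30.7% in the lowest and 12.9% in the highest group, and gaps of up to 500 bp are almost all empty.

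Within their gaps the summits favoured the middle and avoided both starts alike. The nearer start was on the plus strand for 149 and on the minus strand for 161. The distance to the nearer start ran from 33 to 949 bp with a median of 385 bp, and that to the farther start from 49 to 1000 bp with a median of 705 bp. Because the rule itself favours central bases in long gaps, positions were set against the rule's bases of the same gaps. The central segment of the gap, from 0.333 to 0.667 of its length, held 193 of 310 summits (62.3%, 56.7 to 67.5%) and 53.0% of those bases. In gaps of 501 to 1000 bp, nearly all of whose bases meet the rule, it held 51 of 111 (45.9%, 37.0 to 55.2%) and 33.9% of the bases. Within 50 bp of a start lay 5 summits (1.61%, 0.691 to 3.72%), where 6.28% of the bases are, and within 200 bp lay 61 (19.7%, 15.6 to 24.5%), against 27.2% of the bases.

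**Figure D4:**
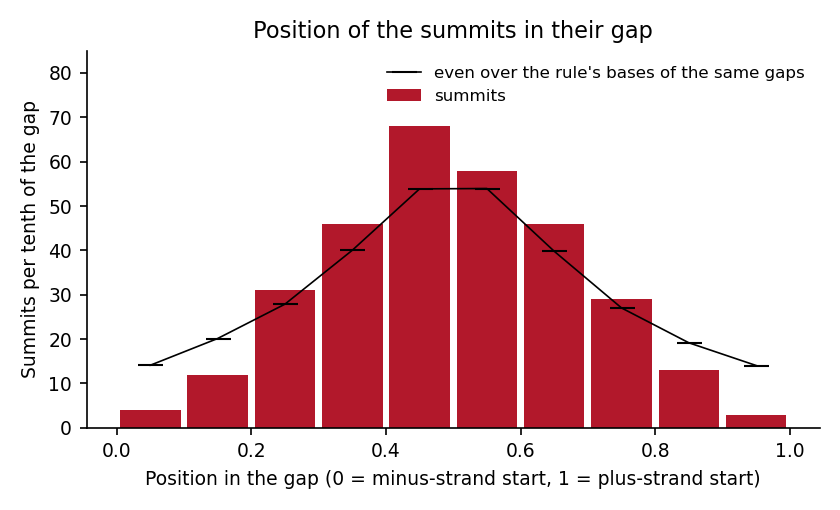
Number of summits in each of 10 equal segments of the gap, from the minus-strand start (0) to the plus-strand start (1), with black marks for the numbers if summits were even over the rule's bases of the same gaps. The outermost segments hold 4 and 3 summits, against about 14 each if even.

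Position bore little relation to score. Across the 310 summits, which share 1 peak call, Spearman's rho of the score was -0.06 with gap length, -0.01 with distance to the nearer start and -0.03 with distance from the middle of the gap. It was 0.18 with GC content within 250 bp and 0.19 with distance to the nearest other summit. The median score was 232 (146 to 425) at 61 summits within 200 bp of a start and 338 (284 to 400) at 103 summits from 201 to 400 bp, with overlapping intervals.

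The shortest and longest gaps show the range. In the gap of 87 bp between AT4G03440, an ankyrin repeat gene, and AT4G03443, the summit was 39 and 49 bp from the starts and scored 143. AT4G31200, a gene for an RNA-binding protein of the SWAP family, and the topoisomerase gene AT4G31210 were separated by 188 bp with a score of 106, and AT5G35480 and MRU1 by 220 bp with a score of 176. Scores were not low in every short gap.

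ATPK7, a protein kinase gene, and AT3G27590, annotated as a reverse transcriptase, shared a gap of 264 bp with a score of 819, and the DNA ligase-like gene AT4G08310 and TPR8 a gap of 312 bp with a score of 938. At the other end, the summit between AT1G49850 and the glutathione transferase gene GSTF14 lay 958 and 949 bp from the starts in a gap of 1906 bp and scored 415. A gap of 1855 bp beside XRN2, an exoribonuclease gene, had a score of 56, and a gap of 1852 bp between SPH1 and LDL3, whose product is related to the histone demethylase LSD1, had a score of 153. All 3 summits in the longest gaps were close to the middle, as the limit of 1000 bp requires.

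Just inside that limit were the summits between AT1G77940 and AGL67, a MADS-box gene (1000 bp from AGL67, score 244), between AT1G60160 and emb1220 (998 bp, score 270) and between SPH1 and LDL3 (995 bp). Just outside it were those at AT3G43240/AT3G43250 (1001 bp, score 220), at AT2G06500/RPA1A (1005 bp, score 85), which encodes a subunit of the single-stranded DNA-binding protein RPA, and at AT1G11470/NRPB10 (1006 bp, score 163), which encodes a small RNA polymerase subunit.

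The 4 gaps with a pair of summits had lengths of 891 to 1122 bp, and the paired summits were 436 to 686 bp apart. Between AT3G45580 and SEN1, a tRNA splicing endonuclease gene, the summits at 16731900 and 16732380 on chromosome 3 scored 130 and 535. Between AT5G46620 and AT5G46630, a clathrin adaptor gene, the scores were 113 and 263, and between AT2G03280 and AT2G03290 they were 220 and 46. At VAM3, the gene for a vacuolar syntaxin, and AT5G46870 they were 100 and 93. In 3 of the 4 pairs the scores differed by more than 2-fold. Sequences of 24 bases repeated in the genome made up 27.8 to 46.7% within 250 bp of the AT5G46620, AT2G03280 and VAM3 summits. At the SEN1 summits they made up 5.44 and 7.53%, and over the 310 the mean was 6.71%. Whether each pair marks separate sites was not tested.

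Summits were also counted inside the flanking genes themselves. At 47 of 310 summits (15.2%, 11.6 to 19.6%) at least 1 of the flanking genes also held a summit, close to the 13.1% (471 of 3603) of all divergent gaps, and at 0 of 310 did both genes (upper Wilson limit 1.22%). Another annotated gene or pseudogene lay in the same gap for 27 summits (8.71%). For both genes and for another gene in the gap, the share over all divergent gaps was not computed. Neither count can therefore be called high or low. At 12 of 105 gaps in which both annotated starts coincide with the start codon the gap was occupied (11.4%, 6.66 to 18.9%), compared with 7.96% (7.02 to 9.02%) where neither did. For such genes the transcript may start further upstream than annotated, and the distances above are to annotated starts.

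Components of DNA methylation and small RNA pathways flanked 15 divergent gaps, and 3 were occupied (20%, 7.05 to 45.2%, against 8.49% of all gaps). SUVH5, a histone H3 lysine methyltransferase gene whose product acts with CHG methylation, had a summit 473 bp upstream with a score of 370, in a gap of 751 bp shared with AT2G35155. NRPD2A had a summit 480 bp from its start and 362 bp from AAE16 with a score of 258. FDM2, a relative of the RdDM factor IDN2, had a summit 640 bp upstream with a score of 69, shared with the transporter gene ANTR2. With 15 gaps the interval includes the background share.

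Other families were near the background. Genes with no named function flanked 650 gaps, of which 68 were occupied (10.5%, 8.34 to 13.1%, median score 238), with the highest scores at AT4G14810 (942) and AT3G09130 (923). Kinase genes had 31 of 318 (9.75%, 6.95 to 13.5%, median 338), led by AT2G01210 and NEK1. F-box genes, which encode substrate receptors of ubiquitin ligases, had 15 of 161 (9.32%, 5.73 to 14.8%, median 398), led by AT3G23880 and AT5G40050. Pentatricopeptide repeat genes, which mostly act on organelle RNA, had 9 of 107 (8.41%), with 644 beside AT5G14770 and 512 beside AT5G11310. Heat shock and chaperone genes had 9 of 86 (10.5%), with 935 beside the DNAJ gene AT5G23240 and 585 beside AT1G03760, which faces the Polycomb gene RING1B. Ribosomal protein genes had 7 of 121 (5.79%, 2.83 to 11.5%) and the low median score of 147, although AT3G07110 had 698 and emb2171 had 528.

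Genes on the homeobox list, which was matched on product words, had 6 of 37 gaps occupied (16.2%, 7.65 to 31.1%). Its highest scores were 411 beside AT3G10595 and 375 beside AT4G12670, which are annotated only as homeodomain-like proteins. Whether such genes are homeobox genes was not tested. Genes of defensin-like and other small secreted peptides had 5 of 72 (6.94%), with 533 beside LCR62 and 347 beside the CLAVATA3-related gene CLE11. Cytochrome P450 genes had 3 of 26 (11.5%), with 673 beside CYP96A9 and 178 beside CYP86B1. MADS-box genes had 2 of 25 (8%), beside AGL57 (289) and AGL67 (244). None of these intervals excluded the share over all gaps.

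Disease resistance genes of the NLR class had 2 of 26 gaps occupied (7.69%), both with high scores: 1121 beside AT5G40060 and 869 between AT5G47250 and AT5G47260, which are both NLR genes. Peroxidase and glutathione transferase genes had 2 of 23 (8.70%), with 939 beside AT5G14130 and 415 beside GSTF14. The AP2/ERF list had 1 of 14 (7.14%), AT1G20600, annotated as AP2/B3-like, with 432. No gap flanked by a gene on the MYB (0 of 20), NAC (0 of 17), WRKY (0 of 7) or SAUR (0 of 14) list was occupied. Their upper Wilson limits of 16.1%, 18.4%, 35.4% and 21.5% all lay above 8.49%. The lists were matched on product descriptions or symbols, so family members described in other words would be missed.

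The DNA at the summits was poor in G and C but less so at the summit itself. Mean GC content within 250 bp was 29.1% ± 4.98 (SD over 310 summits), and the bases that meet the rule had 31.4%. Within 50 bp it was 30.7%, against 28.9% for the rule's bases of the same gaps, a difference of 1.72 points (95% interval over summits 0.973 to 2.48), and the summit was the richer in 187 of 310 (60.3%, 54.8 to 65.6%). Within 250 bp the difference had the opposite sign, -0.353 points (-0.653 to -0.0527). The profile showed a narrow peak of 31.1% at the summit between minima of 27.7% at 150 bp to the left and 28.6% at 150 bp to the right, and a rise to 38.0% and 38.4% at 1000 bp, which is mostly inside the flanking genes. Single-gene promoters and tandem gaps also had a local maximum at the summit, of 31.2% and 31.3%. In tandem gaps the value 50 bp to the right was also 31.3%.

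**Figure D5:**
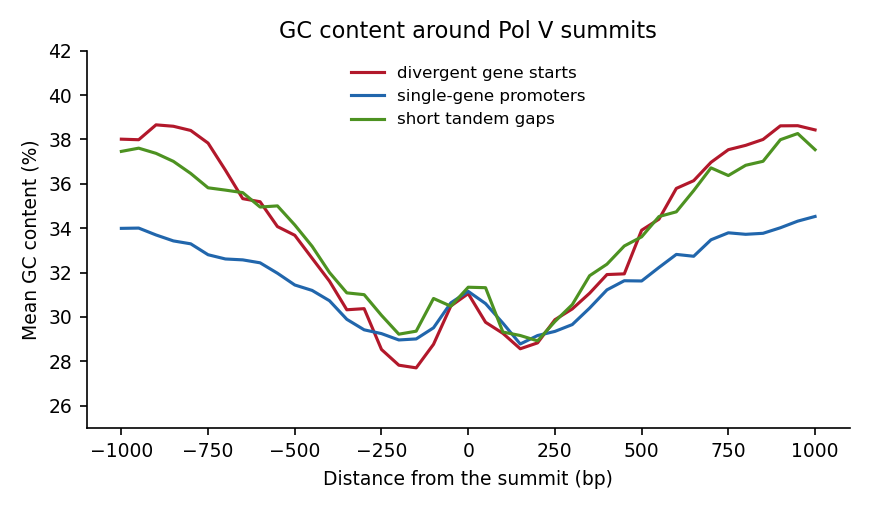
Mean GC content (percent) in steps of 50 bp around the summits of the 3 classes, with distance from the summit in bp along the plus strand. All 3 lines have a local maximum at the summit, of 31.1% between divergent starts. The lines of divergent starts and tandem gaps rise to between 37.5% and 38.4% at 1000 bp.

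Empty gaps of 501 to 1500 bp were richer in GC than occupied ones. In gaps of 501 to 1000 bp the mean GC content was 28.6% (27.8 to 29.4%) in 109 occupied and 30.3% (30.04 to 30.6%) in 839 empty gaps, and in gaps of 1001 to 1500 bp it was 28.7% (28.2 to 29.2%) and 30.4% (30.1 to 30.6%). Above 1500 bp the intervals overlapped, with 29.3% (28.4 to 30.3%) and 29.9% (29.6 to 30.1%). Sequences of 24 bases (24-mers), the usual length of RdDM small RNAs, were counted as repeated when they occur more than once in the genome. Their share was averaged over windows of 100 bp on each side of every 10th base that meets the rule. Windows near a start thus reached into the flanking gene. The mean share was 8.42% (6.06 to 10.8%) in occupied and 3.13% (2.20 to 4.06%) in empty gaps of 501 to 1000 bp. In gaps of 1001 to 1500 bp the shares were 4.62% (3.09 to 6.14%) and 3.13% (2.16 to 4.10%), and above 1500 bp they were 10.12% (5.73 to 14.5%) and 5.48% (3.87 to 7.10%), with overlapping intervals in both. Within a gap the repeats were not gathered at the summit: the share within 50 bp was 7.36%, against 6.99% over the rule's bases of the same gap, a difference of 0.370 points (-1.32 to 2.06). Since only reads with a single place in the genome were kept, fully repeated sequence could not yield a summit, and on average 98.5% of the 50-mers within 250 bp of the 310 were unique, against 98.1% for the rule's bases.

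Inverted repeats with perfect arms of at least 16 bp, using at least 3 of the 4 bases, lay within 250 bp of 11 of the 310 summits (3.55%, 1.99 to 6.24%). The share if the same summits were even over the rule's bases of their own gaps was 2.93%, and windows in gaps without a summit had 0.895%. The windows in empty gaps were not matched for gap length. Of gaps of up to 500 bp, 1397 were empty and 13 occupied, and windows there reached into the flanking genes. Single-gene promoters had 2.62% (2.03 to 3.38%) and tandem gaps 2.52%. The 11 arms were 16 to 66 bp long at summits that scored from 41 to 1439, and in 7 the summit lay between the outer ends of the repeat, as in both sequences shown above. The windows searched were centred on the summits, which favours such a position, and the share for other windows was not computed. The next longest after that of AT5G43200/AT5G43210 had arms of 33 bp, between AT5G14770 and the formate dehydrogenase gene FDH. Direct repeats of the same length lay at 37 summits (11.9%, 8.78 to 16.0%), against 12.1% if even in their own gaps. In gaps without a summit 8.16% of windows had one, again not matched for gap length.

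Cytosines were slightly fewer than in the class as a whole, a comparison not made within the same gaps. Windows of 501 bp held 20.2 ± 10.2 cytosines in CG, 15.6 ± 8.13 in CHG and 109.6 ± 17.5 in CHH context on both strands (SD, n = 310), compared with means of 21.7, 17.3 and 117.8 over the bases that meet the rule. Single-gene promoters had means of 20.5, 16.0 and 111.5, and tandem gaps 22.2, 16.9 and 110.4. The ratio of observed to expected CG sites had a median of 0.923, against 0.845 over the bases that meet the rule. It was 0.895 in single-gene promoters and 0.961 in tandem gaps.

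Promoter elements were counted on both strands within 250 bp of the summit. The TATA box TATAAA occurred at 78.4% (73.5 to 82.6%), compared with 68.8% of all windows of that length in the class, but with 77.1% if the summits were even over the rule's bases of their own gaps. The site II element TGGGCC, common upstream of ribosomal protein genes, was at 12.9% (9.62 to 17.1%) against 21.4% of all windows and 13.9% in the same gaps. The G-box CACGTG was at 5.16% (3.20 to 8.22%) against 10.06% and 6.73%. For these 3 elements the difference from the class lay mostly between occupied and other gaps. Occupied gaps were longer (median 1088 bp, against 706 bp over all gaps), and the windows were not matched for gap length. CCAAT was at 63.2% (57.7 to 68.4%), with 69.7% of all windows and 66.2% in the same gaps, and the telo-box AAACCCTA at 7.10% (4.73 to 10.5%), with 8.47% and 7.01%. Such matches are letters in a window and say nothing about which factor binds.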

How the data were processed

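The deposited file is 1 list of Pol V summits. The authors aligned reads to TAIR10 with Bowtie 1.0.0 (unique alignments, up to 2 mismatches), discarded duplicates with SAMtools 0.1.19, called peaks against the control with MACS2 (q-value 0.05) and used summits of peaks enriched more than 2-fold. The deposited score is a whole number per peak with no stated scale.

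Here 1 blank record was left out, and genes, starts and sequence came from RefSeq TAIR10.1 (27444 protein-coding genes). All summits fell inside its chromosomes. Shares have Wilson, densities exact Poisson and medians order-statistic intervals, all 95%, which cover counting error only. Exact 24-mers and 50-mers were counted over the whole genome. No p-values and no random placements were used, and transposon annotation was not used here. Scripts ran in Python 3.11.15 with SciPy 1.17.1 and NumPy 2.4.6, drew figures with matplotlib 3.10.9 and were tested on simulated data.

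Sites named were the 10 highest scores, the 5 shortest and 3 longest gaps, gaps with a pair, those beside DNA methylation genes, the 3 on each side of the limit, and the 2 highest scores per gene list. Gene lists were matched on product descriptions or symbols. The rule, the members and the lists were chosen with earlier results of these data known, and one list pattern was corrected once the annotation had been read. Repeats, purine tracts, same-gap comparisons, density by distance, occupancy by length and gene density together, gap composition and isolated summits were added after first results were seen. Alternatives tried were other windows, score and merging filters, gene definitions and summary measures.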

Additional observations from a re-analysis of the deposited data

How the results depend on the processing

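Of 48 alternatives over 7 results, 30 left the value inside its interval. This tally does not measure robustness. Keeping summits downstream of gene ends (322) or leaving out only those in protein-coding genes (318) changed few of the 310. A score filter or a wider central segment shifts values by construction. With a window of 500 bp, the share of summits between divergent starts was 0.592%, the density 122.5 per Mb, the share of gaps occupied 2.78%, the share in the central segment 70.6% and the GC content 29.9%. With 2000 bp, the share was 6.29%, the median score 267.5, gaps occupied 15.7%, the central segment 49.9% and unique 50-mers 98.0%. Only summits at or above the list median gave a share of 3.75%, a density of 133.5 per Mb, a median score of 428 and 5.995% of gaps occupied. The mean score was 371.4, the segment from 0.25 to 0.75 of the gap held 80.3% of summits, and GC content was 30.2% with both 100 bp and 500 bp on each side. The order of the class medians was kept at 500 bp (342, 309 and 250 for divergent starts, tandem gaps and single-gene promoters) and at 2000 bp (267.5, 220 and 194), but at 500 bp the intervals overlapped. Density was highest in single-gene promoters at 500 bp (196.2 per Mb) and at 2000 bp (230.8, against 207.6 and 193.1 for divergent starts and tandem gaps), and at 2000 bp the interval of divergent starts overlapped both others. No paired analysis was possible because the list is 1 peak call and its results come from no test. Depth is unknown, weaker or repeated sites cannot be seen, and a single call gives no error between experiments.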
